A study of Mus musculus with 45 samples.

Results

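A total of 2186 of the 8199 differentially methylated regions (DMRs) between obese and control mice were intergenic and lay near a gene, which is 26.7% of the list. The list was made by comparing methylation in obese and control mice. From it these regions were chosen by position, with earlier results of these data known. The midpoint of each lay outside every gene span of the annotation that came with the gene counts, and between 1 kb and 50 kb from the nearest gene start. Of these, 1062 were hypermethylated (hyper-DMRs) and 1124 hypomethylated (hypo-DMRs) in the colonic epithelium of obese mice. The other regions of the list lay within 1 kb of a gene start (397), inside a gene span (3415) or in intergenic sequence over 50 kb from any gene start (2201).

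The series compared diets in male C57BL/6 mice (C57BL/6J by the methods of the study) that were 6 weeks old when the feeding began and carried no engineered allele according to the labels. Control mice (LF) were fed the low-fat chow, labelled 10% fat, for 20 weeks. Obese mice (HF) were fed the high-fat chow, labelled 60% fat, for 20 weeks. Formerly obese mice (HFLF) spent 15 weeks on high-fat chow and then 5 weeks on low-fat chow. Epithelium was released from the whole colon with EDTA, so one sample pools the crypts of an entire organ. RNA libraries of 5 mice per diet, 15 in all, gave gene counts, and whole-genome bisulfite sequencing of 5 control and 5 obese mice gave the DMR list.

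Cytosine methylation in mammals sits mostly on CpG dinucleotides, where a cytosine is followed by a guanine on the same strand. Away from promoters most CpGs are methylated, and dips mark enhancers and insulators, the stretches that transcription factors occupy and through which distant genes are switched on or shielded. Bisulfite sequencing reads methylation CpG by CpG because only unmethylated cytosines are converted. In the gut lining, which renews itself from crypt stem cells, such distal elements carry much of the difference between cell states.

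The deposited list gives the position and the direction of each region and no methylation level of any mouse, so the size of a methylation difference and its state in formerly obese mice were not analysed here. Each of the 8199 regions began and ended on a CG of the mouse genome GRCm38 (mm10). Sequences are shown for 5 of the regions nearest to genes that were called in obese mice, up to 3 per direction of the gene by p-value and at least 20 bases wide, and for 3 regions that were rich in CpGs or lay on a known element, the latter picked after their values were seen. All are written 5′ to 3′ on the plus strand, in lower case, with the CGs of the listed region in capitals and with flanks added where the region was shorter than 100 bases. The first 5 lie near genes that differed in obese mice. They are the hypo-DMR near Dgat2 at chr7:99183865-99183916, that near Homer1 at chr13:93279624-93279660, that near Lpcat1 at chr13:73433960-73434046, the hyper-DMR near Spry1 at chr3:37649112-37649255 and that near B3gnt7 at chr1:86310669-86310694. The last 3 are hypo-DMRs, near H19 at chr7:142582026-142582058, near Inpp5d at chr1:87607909-87607984 and near Cebpb at chr2:167675704-167675740.
Dgat2: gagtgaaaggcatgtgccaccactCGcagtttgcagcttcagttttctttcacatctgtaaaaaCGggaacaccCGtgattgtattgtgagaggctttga
Homer1: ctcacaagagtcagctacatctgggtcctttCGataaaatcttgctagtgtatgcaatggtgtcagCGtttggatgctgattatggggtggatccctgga
Lpcat1: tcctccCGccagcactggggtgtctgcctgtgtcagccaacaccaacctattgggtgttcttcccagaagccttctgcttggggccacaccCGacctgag
Spry1: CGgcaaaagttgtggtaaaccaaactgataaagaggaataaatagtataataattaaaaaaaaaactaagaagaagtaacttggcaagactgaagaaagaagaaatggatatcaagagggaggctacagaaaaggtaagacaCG
B3gnt7: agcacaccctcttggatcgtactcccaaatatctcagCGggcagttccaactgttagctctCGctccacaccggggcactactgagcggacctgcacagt
H19: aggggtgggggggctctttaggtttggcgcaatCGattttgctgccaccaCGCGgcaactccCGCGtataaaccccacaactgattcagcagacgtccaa
Inpp5d: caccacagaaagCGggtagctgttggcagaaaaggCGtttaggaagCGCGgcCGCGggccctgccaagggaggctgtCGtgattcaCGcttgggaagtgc
Cebpb: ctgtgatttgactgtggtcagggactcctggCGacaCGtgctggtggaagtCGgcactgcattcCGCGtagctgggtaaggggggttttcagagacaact

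As the sequences show, most regions were a pair of CpGs and the bases between them. The median width was 28 bases, with a range of 4 to 1465, and 2017 regions (92.3%) held exactly 2 CpGs. The study's rule asked for 2 or more differing CpGs per region, so 2 is the floor of the list. The share with exactly 2 was 92.4% at gene starts, 92.9% inside gene spans and 95.2% in distant intergenic sequence. The Inpp5d region held the most, 8 CpGs in 76 bases. The regions near Cebpb, H19, Gm7244 and Scd2 held 5 each, and those other 4 spanned 18 to 208 bases. The widest region, a hypo-DMR near Clrn1, spread 1465 bases over 2 CpGs.

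Windows of 300 bases centred on the regions had a median of 48.3% GC and 5 CpGs. At regions within 1 kb of a gene start the medians were 51.7% and 8 CpGs, and at intergenic regions farther than 50 kb they were 46.3% and 4 CpGs. Windows with the composition of a CpG island (over 50% GC and an observed to expected CpG ratio over 0.6) made up 3.48% of the intergenic regions near genes, 11.3% at gene starts and 2.59% in distant intergenic sequence. Among the hyper-DMRs 47 windows (4.43%) were of that kind, and among the hypo-DMRs 29 (2.58%). Sequence masked as repeats took a median of 13.7% of a window. Windows over 50% masked numbered 16.97% here, 3.53% at gene starts, 9.22% inside gene spans and 27.8% in distant intergenic sequence. In base composition the regions near genes were close to those inside gene spans, which had medians of 48.7% GC and 5 CpGs and 3.02% island-like windows. They stood between the regions at gene starts and the distant intergenic ones in base composition and in repeats.

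Hyper-DMRs made up 48.6% of the regions (95% exact binomial interval 46.5% to 50.7%, which covers counting error only). The share was 54.4% (49.4% to 59.4%) at gene starts, 49.7% (48.0% to 51.4%) inside gene spans and 52.1% (50% to 54.2%) in distant intergenic sequence. The intervals of the near and the distant intergenic regions overlapped. Within the intergenic regions near genes the hyper share was 49.7% at 1 to 5 kb, 50.4% at 5 to 10 kb, 49.4% at 10 to 20 kb and 46.9% at 20 to 50 kb, and these 4 intervals overlapped too. By chromosome, leaving out Y, the hyper share ran from 38.4% on X (28 of 73 regions) to 54.4% on chromosome 16, with no interval taken. All mice were male, and read depth per chromosome was not analysed here. Density ran from 0.427 regions per Mb on X to 1.21 per Mb on chromosome 11, leaving out the single region on Y.

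Upstream of the gene start lay 1570 regions (71.8%), and downstream, past the end of the gene, 616. The upstream share was 90.9% at 1 to 5 kb and 65.9% at 20 to 50 kb. A gene span occupies the downstream side near its own start and takes regions there out of the intergenic class by definition. The median distance was 16.5 kb. The closest region above the lower limit was a hypo-DMR near Cacng5 at 1014 bases, and the closest intergenic one below it, left out, a hypo-DMR near Cpsf6 at 991 bases. At the other limit a hypo-DMR near Grid1 was included at 49964 bases, and a hyper-DMR near D130017N08Rik was left out at 50081 bases.

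**Figure D1:**
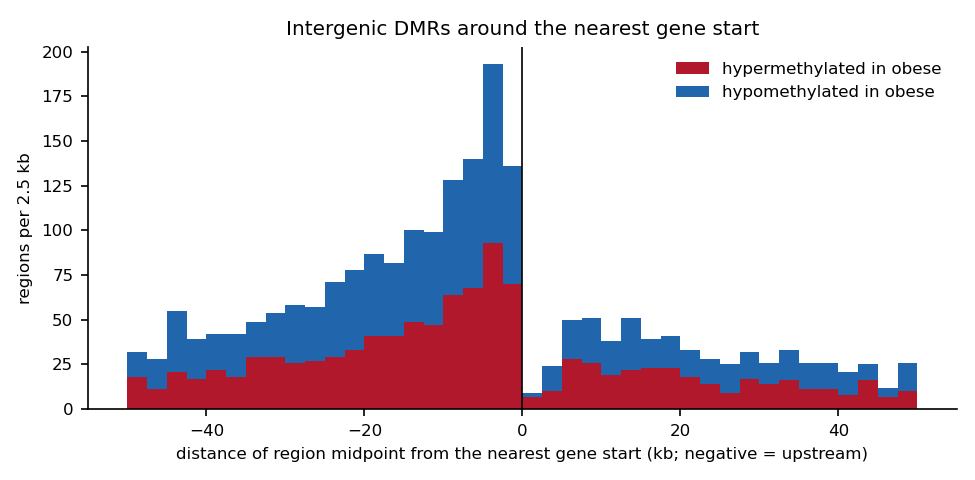
Number of intergenic DMRs per 2.5 kb (y axis) against the signed distance of the region midpoint from the nearest gene start in kb (x axis, negative upstream), stacked as hyper-DMRs (red) and hypo-DMRs (blue). The 1570 upstream regions crowd toward the gene start, the 616 downstream ones do not, and both colours follow the same outline.

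The regions had 1950 nearest genes among 24918 gene entries. Of these genes 1738 had 1 region, 190 had 2, 20 had 3, and 4933432G23Rik and Fcgr1 had 4 each. Where a gene had more than 1 region, all went the same way for 102 genes and both ways for 110. The genes with 4 regions, and the 4 taken from those with 3, were at or near 0 counts in this tissue except Endov, an endonuclease gene that acts on inosine in nucleic acids. Marco, a scavenger receptor of macrophages, had 3 hyper-DMRs upstream at 1.37, 33.1 and 43.5 kb. Nos1, the neuronal nitric oxide synthase, also had 3 upstream hyper-DMRs, at 2.13, 7.84 and 15.8 kb, and all 3 lie inside a longer Nos1 span of GENCODE M21. Fcgr1, a high-affinity receptor for IgG, had 3 hypo-DMRs and 1 hyper-DMR between 6.81 and 46.6 kb upstream. Endov had 2 hypo-DMRs and 1 hyper-DMR.

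Neighbouring regions shared a direction about as often as not. Of the 114 neighbours up to 10 kb apart, 59 (51.8%) went the same way, and of all 2165 neighbouring pairs 48.9% did. The closest pair, 2 hyper-DMRs 19 bases apart near Cox7a2l, went the same way, whereas a hypo-DMR and a hyper-DMR stood 136 bases apart near Prep. As many as 1094 regions (50.05%) had a single gene start within 50 kb, and 167 had 5 or more, so the nearest gene is a label of position and need not be the gene on which a region acts. The annotation also matters. By GENCODE M21, a fuller annotation of the same genome, 444 of the regions (20.3%) lie inside a gene span, 210 of them in protein-coding genes and 116 in long intergenic noncoding RNA genes.

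RefSeq lists experimentally studied functional elements of this genome, and 7 of the intergenic regions near genes overlapped one. Among all 8199 regions 23 did. The hypo-DMR near H19 lies in the imprinting control region of the H19 and Igf2 genes. H19 is a noncoding RNA made from the maternal chromosome and Igf2 a growth factor gene made from the paternal one. The control region is methylated on the paternal copy, and on the maternal copy it binds CTCF, an insulator protein that keeps enhancers from reaching Igf2. The region starts 3880 bases upstream of the H19 start and spans 33 bases, inside the CTCF site named m1, which starts at the same base and spans 48. All 5 of its CpGs therefore lie within that site. A single fixed string of letters for the core of a CTCF site was searched on both strands after the region had been seen. It was found in 1 of the 2186 windows, that at H19, where it stands in the printed sequence on the minus strand. The same window was the only match among all 8199 regions, and 12 of 32851 RefSeq promoter windows of 300 bases (0.0365%) held the string. Other forms of the site were not searched, and the H19 site was known beforehand. These counts therefore do not show how many windows hold a CTCF site.

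**Figure D2:**
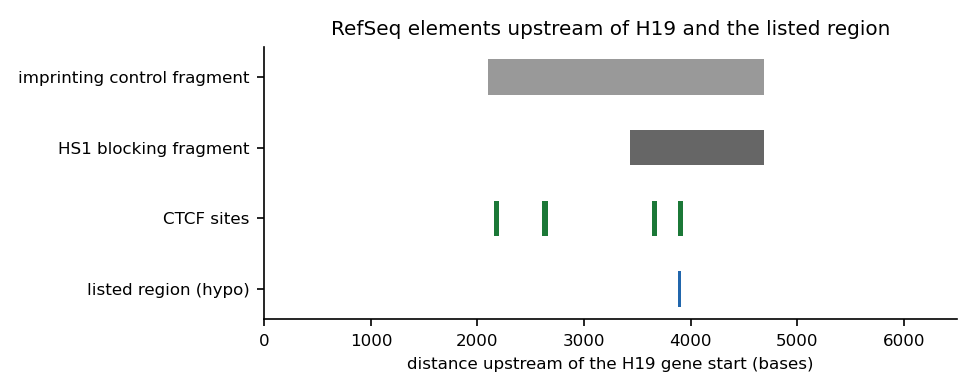
Elements listed by RefSeq (grey fragments, green CTCF sites) and the listed hypo-DMR (blue) drawn to scale by distance upstream of the H19 gene start in bases (x axis). The region of 33 bases falls on the CTCF site farthest from the gene start, the last of 4.

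Neither gene of the imprinted pair was measurable to any depth in the epithelium. H19 had 1 read in each of 4 control mice and none in any other library, which is too few to compare. Igf2 stood at 1.25, 0.851, 1.30, 1.66 and 1.42 CPM (read counts scaled to library size) in control mice, at 1.70, 1.28, 1.12, 1.75 and 1.501 CPM in obese mice and at 1.17, 1.00, 1.74, 1.10 and 1.24 CPM in formerly obese mice, and all 3 groups overlapped. Its log2 fold change was 0.18 ± 0.22 (SE) in obese against control mice (edgeR adjusted p = 0.821).

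Of the other elements, a hyper-DMR 7.46 kb downstream of the B3gnt7 start falls in an enhancer whose silencing lowers B3gnt7 in mouse embryonic stem cells. A hypo-DMR lies in a distal enhancer of Nanog and Dppa3, which are genes of pluripotent cells. A hypo-DMR between Hoxc11 and Hoxc10 at chr15:102959028-102959053 lies in an enhancer active in limb and tail. The remaining 3 were a hypo-DMR in an Fgf3 enhancer of the ear and cranial ganglia, a hypo-DMR near 9330188P03Rik in a limb enhancer and a hyper-DMR near Kcne1 in a midbrain enhancer. Hoxc11 and Fgf3 had 0 counts in all 15 libraries and Hoxc10 and Dppa3 at most a few reads per library, whereas B3gnt7 was abundant.

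Short motifs of transcription factors were counted in the 300-base windows on both strands. TGACCT, the core that many nuclear receptors bind, was in 19.1% of the windows, in 20.8% of those at hypo-DMRs and in 17.3% of those at hyper-DMRs. CACGTG, the E-box, was in 6.496%, TGANTCA, the AP-1 site, in 9.52%, GATAAG, the GATA site, in 9.52% and TTTATNG, a CDX site, in 16.3%. In distant intergenic regions TGACCT was in 16.6% of windows, CACGTG in 6.36%, TGANTCA in 9.50%, GATAAG in 10.7% and TTTATNG in 17.0%, and in the RefSeq promoter windows the same 5 motifs were in 16.3%, 7.15%, 7.81%, 7.44% and 10.9%. Inside gene spans they were in 20.1%, 7.41%, 8.49%, 9.90% and 15.8% of windows. The GC-rich motifs were far scarcer than in promoters. GGGCGG, the SP and KLF box, was in 7.32% of the windows, 19.4% of those at gene starts and 35.7% of RefSeq promoter windows. CCGGAAG, the ETS site that ELK factors use, was in 2.88% against 8.86% of promoter windows. The other DMR classes were low as well, with CCGGAAG in 3.02% at gene starts, 2.72% inside gene spans and 1.82% in distant intergenic sequence. A match is a stretch of letters and not a bound site.

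The question that the gene counts can answer is whether the genes beside these regions differed in expression between diets. Of the 1950 nearest genes 931 passed the low-count filter, and the other 1019 were not tested. Counts were tested over all 12961 genes that passed, with edgeR's quasi-likelihood test, and the cutoffs for a call were those of the study, a change of more than 1.2-fold, a p under 0.01 and, after Benjamini-Hochberg adjustment, under 0.25. Levels are given as CPM, a scale on which one gene can be compared between mice but not with another gene of different length. In bulk epithelium, fewer cells of a type and less RNA per cell cannot be told apart.

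In obese against control mice 19 of the 931 nearest genes were called (2.04%), 9 higher and 10 lower. Over all tested genes the share was 1.58%, with 0.718% higher and 0.864% lower. By direction of the region, 4 nearest genes of hyper-DMRs were higher and 5 lower, and 5 nearest genes of hypo-DMRs were higher and 5 lower. The median log2 fold change was 0.02 for the 470 tested genes near hyper-DMRs and 0.01 for the 505 near hypo-DMRs, against 0.00 over all tested genes. A gene with regions of both directions counts in both sets. Medians taken mouse by mouse ran from -0.01 to 0.03 near hyper-DMRs and from 0.00 to 0.03 near hypo-DMRs. The medians of the 2 kinds of region thus differed by less than the spread between mice. Called genes numbered 1 of 168 at 1 to 5 kb, 4 of 163 at 5 to 10 kb, 4 of 240 at 10 to 20 kb and 10 of 421 at 20 to 50 kb. The count rested on single libraries, and so did the share called over all tested genes. The count of nearest genes was 10 without control replicate 1, 5 without control replicate 2, 30 without control replicate 4, and 11, 32, 4, 6 and 4 without obese replicates 1, 2, 3, 4 and 5. Without obese replicate 3 the share was 0.427% of nearest genes and 0.308% of all tested genes. Without obese replicate 2 these shares were 3.40% and 2.54%.

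**Figure D3:**
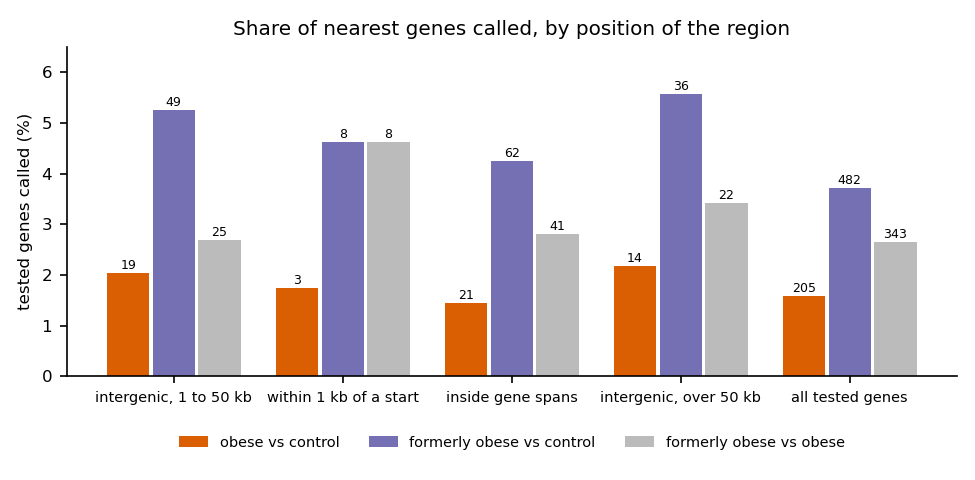
Percentage of tested genes called (y axis) among the nearest genes of each class of DMR position and among all tested genes (x axis), for the 3 comparisons (colours), with the number of called genes on each bar and no error bar. For the intergenic regions near genes the bars stand at 2.04%, 5.26% and 2.69%, against 1.58%, 3.72% and 2.65% for all tested genes. For distant intergenic regions they stand at 2.17%, 5.58% and 3.41%, at gene starts at 1.73%, 4.62% and 4.62%, and inside gene spans at 1.44%, 4.26% and 2.82%.

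Lpcat1, an acyltransferase that builds phosphatidylcholine, fell and had the smallest p of all nearest genes. It stood at 13.6, 15.7, 14.3, 14.8 and 13.5 CPM in control mice and at 8.93, 10.0, 9.62, 8.73 and 10.8 CPM in obese mice, and the groups did not overlap. Its log2 fold change was -0.58 ± 0.10 (SE, edgeR adjusted p = 0.037), and it was the single nearest gene with an adjusted p under 0.05, a mark that 16 of all tested genes (0.123%) passed. Its hypo-DMR, printed above, lies 33.4 kb upstream with no other gene start within 50 kb. In formerly obese mice Lpcat1 stood at 8.68, 10.8, 12.4, 12.7 and 13.3 CPM, all under the lowest control mouse (log2 fold change -0.31 ± 0.10, edgeR adjusted p = 0.129). That second call was lost without control replicates 2, 3 or 4, formerly obese replicates 1 or 2 or obese replicates 2 or 3 (log2 -0.31 to -0.22).

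Dgat2, which makes triglyceride from diglyceride, rose. Control mice held 65.1, 59.6, 53.9, 58.0 and 52.8 CPM and obese mice 72.3, 74.1, 86.5, 96.7 and 88.2 CPM, again without overlap (log2 fold change 0.53 ± 0.11, edgeR adjusted p = 0.0678). Formerly obese mice, at 96.3, 71.6, 66.6, 78.9 and 61.0 CPM, overlapped the control mice in their lowest value and kept a log2 fold change of 0.37 ± 0.11 (edgeR adjusted p = 0.0823). The Dgat2 hypo-DMR was the closest to a gene start among the regions of called genes, 1.18 kb upstream with 3 CpGs in 52 bases. Abcc4, an exporter of cyclic nucleotides and drug conjugates, fell from 22.7, 22.3, 20.3, 21.2 and 21.8 CPM in control mice to 17.2, 17.7, 17.8, 17.1 and 17.7 CPM in obese mice. Formerly obese mice held 15.4, 17.4, 17.5, 19.6 and 18.5 CPM, so that every mouse fed the high-fat chow was below every control mouse. Its log2 fold changes were -0.31 ± 0.06 (edgeR adjusted p = 0.0723) and -0.29 ± 0.06 (edgeR adjusted p = 0.0268), the second lost without formerly obese replicate 1 (-0.25), and its hypo-DMR of 5 bases lies 10.5 kb upstream.

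Duox2, an oxidase of the gut surface that releases hydrogen peroxide, rose from 52.5, 39.6, 50.04, 44.4 and 48.8 CPM in control mice to 88.2, 53.9, 86.8, 60.8 and 85.5 CPM in obese mice. The lowest obese mouse was just above the highest control mouse (log2 fold change 0.67 ± 0.14, edgeR adjusted p = 0.0786), and formerly obese mice at 61.0, 49.1, 75.2, 77.4 and 74.7 CPM overlapped the control mice and were also called higher (0.52 ± 0.14, edgeR adjusted p = 0.0684). Its hypo-DMR at chr2:122279710-122279754 lies 18.4 kb downstream of the start. GENCODE M21 and RefSeq both place that region in an exon of Duox2, in the untranslated end of the transcript, although the span given with the counts stops short of it. Lpcat1, Dgat2, Abcc4 and Duox2 kept their calls in obese mice when each of the 15 libraries was left out in turn.

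The other called genes kept their calls in fewer of these fits. Enpep, an aminopeptidase of the brush border that trims angiotensin, stood at 28.4, 11.7, 30.6, 29.9 and 26.2 CPM in control mice and at 34.2, 34.0, 49.9, 41.5 and 54.0 CPM in obese mice. Its log2 fold change was 0.75 ± 0.20 (edgeR adjusted p = 0.143), lost without obese replicates 3, 4 or 5, and its hyper-DMR lies 5.78 kb upstream. Naaladl1, another peptidase of the intestinal surface, rose by 0.48 ± 0.13 on the log2 scale (edgeR adjusted p = 0.148), from 133 ± 15.7 CPM (SD, n = 5 mice) to 185 ± 21.6 CPM. Its region has 13 gene starts within 50 kb, and the call was lost without control replicate 2 or obese replicates 3, 4 or 5 (0.41 to 0.49). Homer1, a scaffold of calcium signalling with 2 upstream hypo-DMRs, rose by 0.30 ± 0.08 (edgeR adjusted p = 0.139) without overlap between groups. The same 4 libraries each ended the Homer1 call when left out (0.26 to 0.31).

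Spry1, an inhibitor of receptor tyrosine kinase signalling, held 15.8, 14.4, 14.3, 12.1 and 13.7 CPM in control mice and 11.0, 12.4, 11.3, 9.79 and 10.5 CPM in obese mice. Formerly obese mice held 12.5, 9.78, 9.92, 11.0 and 10.2 CPM, and the lowest control mouse lay within the range of both other groups. The log2 fold changes were -0.35 ± 0.09 in obese mice (edgeR adjusted p = 0.143) and -0.40 ± 0.09 in formerly obese mice (edgeR adjusted p = 0.0326). The first was lost without control replicates 1 or 2 or obese replicates 3, 4 or 5 (-0.36 to -0.31), and the second was kept in every such fit. Its hyper-DMR spans 144 bases, 9.23 kb downstream of the start, and no other gene start lies within 50 kb.

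B3gnt7, which builds sugar chains of mucins and keratan, is abundant in this tissue. Control mice held 1013, 1180, 869, 942 and 920 CPM, obese mice 790, 906, 753, 741 and 838 CPM and formerly obese mice 738, 774, 643, 736 and 811 CPM. Every formerly obese mouse was below every control mouse (log2 fold change -0.41 ± 0.08, edgeR adjusted p = 0.0233), while 1 obese mouse overlapped the controls (-0.29 ± 0.08, edgeR adjusted p = 0.178). The call in obese mice was lost without control replicates 1 or 2 or obese replicates 1, 3, 4 or 5 (-0.31 to -0.22). Its hyper-DMR in the B3gnt7 enhancer has 6 gene starts within 50 kb. Mylip, a ubiquitin ligase for lipoprotein receptors, fell by 0.39 ± 0.10 on the log2 scale (edgeR adjusted p = 0.142, lost without control replicate 2 or obese replicates 3, 4 or 5) near a hyper-DMR. Xpa, Kazald1 and Cdk14 also fell, and each call was lost without 6 or 7 of the libraries. Runx3, Slpi, Grhl3, Glis3, Atp2b4 and Tnfrsf8 were the other called genes.

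**Figure D4:**
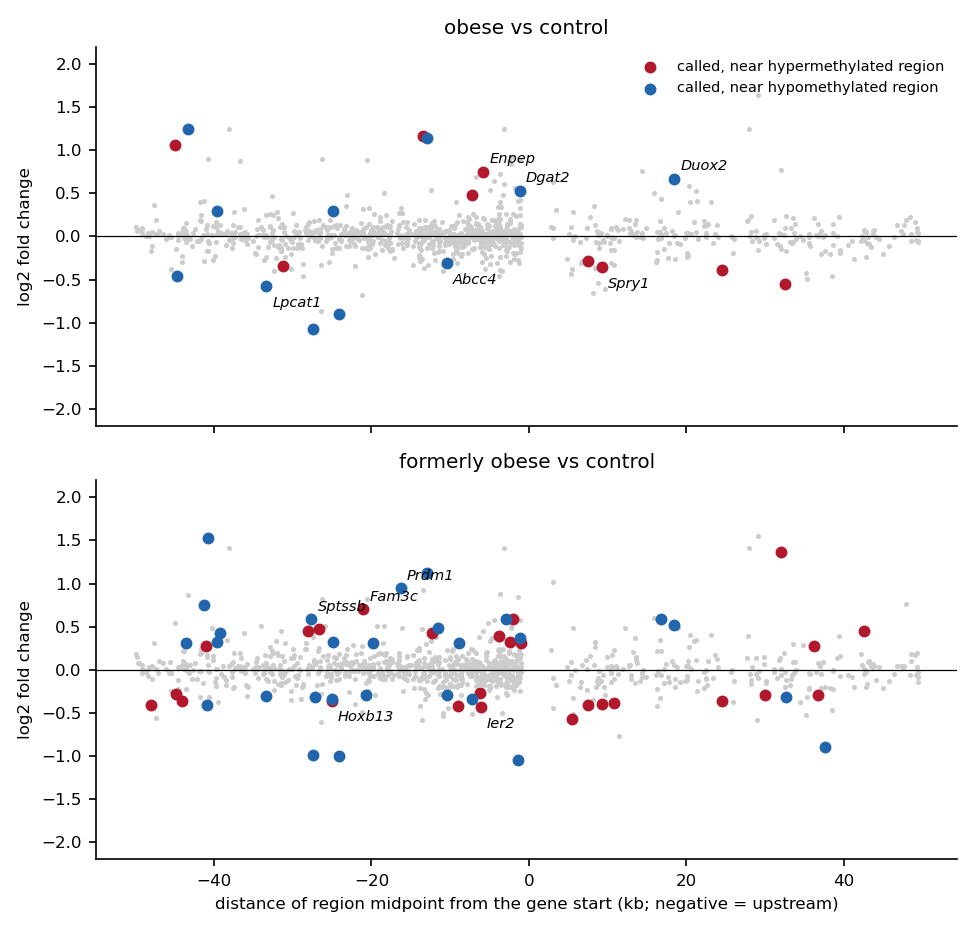
Log2 fold change of the nearest gene (y axis) against the signed distance of the intergenic DMR from its start in kb (x axis), one point per region with a tested gene, for obese (top) and formerly obese (bottom) against control mice. Coloured points are called genes, red near hyper-DMRs and blue near hypo-DMRs, and both colours stand above and below 0.

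Setting formerly obese beside control mice asks how epithelium differed after a spell of high-fat chow and a return to low-fat chow. Of the 931 nearest genes 49 were called (5.26%), 25 higher and 24 lower, beside 3.72% of all tested genes (1.85% higher and 1.87% lower). Among the nearest genes of distant intergenic regions the share was 5.58%. Near hyper-DMRs 12 were higher and 13 lower, and near hypo-DMRs 15 were higher and 12 lower, with genes that have both kinds of region counted in both. The medians were 0.00 for genes near hyper-DMRs, 0.01 near hypo-DMRs and 0.00 over all genes, with medians per mouse between -0.01 and 0.02. The share called was 3.57% at 1 to 5 kb, 4.91% at 5 to 10 kb, 3.75% at 10 to 20 kb and 6.41% at 20 to 50 kb. Leaving out a library gave counts from 40 to 65, while the share over all tested genes ran from 2.78% to 5.07%. At an adjusted p under 0.05 alone 23 nearest genes passed, beside 2.18% of all tested genes. This comparison and the preceding one share the 5 control libraries, so agreement between them is no independent support.

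Fam3c, a secreted factor of epithelial cells, had the smallest p. It stood at 11.5, 8.64, 12.2, 12.6 and 9.78 CPM in control mice, at 10.9, 12.2, 17.9, 13.8 and 13.6 CPM in obese mice and at 18.2, 17.2, 21.3, 16.7 and 15.7 CPM in formerly obese mice. The formerly obese mice lay wholly above the control mice (log2 fold change 0.71 ± 0.13, edgeR adjusted p = 0.0209), and the obese mice overlapped both. Its hyper-DMR is 21.1 kb upstream. Bmp3, a secreted antagonist within the bone morphogenetic protein family, held 66.6, 57.1, 66.5, 50.6 and 63.4 CPM in control and 83.1, 90.0, 67.8, 95.5 and 87.0 CPM in formerly obese mice without overlap (0.48 ± 0.09, edgeR adjusted p = 0.0233), with a hyper-DMR 26.7 kb upstream. Rnf152, a ubiquitin ligase of lysosomes, rose by 0.45 ± 0.09 (edgeR adjusted p = 0.026) without overlap between groups, although 74.98 CPM in the lowest formerly obese mouse was close to 74.9 CPM in the highest control mouse.

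Prdm1 encodes Blimp-1, the repressor that holds the fetal state of the intestinal lining. Its level was low, at 1.56, 1.31, 1.92, 2.09 and 1.86 CPM in control mice, 2.14, 2.2, 2.77, 2.37 and 1.56 CPM in obese mice and 3.55, 4.07, 2.89, 4.06 and 2.38 CPM in formerly obese mice. The last group lay above all control mice (log2 fold change 0.95 ± 0.19, edgeR adjusted p = 0.0253). Its hypo-DMR of 6 bases lies 16.3 kb upstream by the annotation of the counts and inside Prdm1 by both GENCODE M21 and RefSeq. Cast, the inhibitor of calpain proteases, and Tra2a, a splicing factor, rose by 0.31 ± 0.06 (edgeR adjusted p = 0.026) and 0.39 ± 0.10 (edgeR adjusted p = 0.0454).

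Among the genes that fell, Ier2, an immediate early gene, went from 125, 116, 106, 109.8 and 143 CPM in control mice to 96.6, 89.8, 89.5, 85.8 and 81.8 CPM in formerly obese mice without overlap (log2 fold change -0.43 ± 0.08, edgeR adjusted p = 0.0233). Its level in obese mice was 104, 131, 108, 103 and 127 CPM, and the hyper-DMR 6.13 kb upstream lies in an exon of the noncoding gene Gm26664 of GENCODE M21. Hoxb13, the posterior Hox gene of the distal colon, stood at 353 ± 29.8 CPM in control, 319.6 ± 32.8 CPM in obese and 275 ± 30.3 CPM in formerly obese mice (SD, n = 5 each). The formerly obese mice were all below the control mice (-0.36 ± 0.08, edgeR adjusted p = 0.0303), and its hyper-DMR of 7 bases lies 25.03 kb upstream. Txnrd3, a thioredoxin reductase, fell by 0.43 ± 0.09 (edgeR adjusted p = 0.026), and its hyper-DMR spans 313 bases with 3 CpGs. B4galnt3, a glycosyltransferase near a hypo-DMR, fell as well (-0.34 ± 0.07, edgeR adjusted p = 0.0268, lost without control replicate 2), and all formerly obese mice were below all control mice. Rplp1, a protein of the ribosome stalk with 2 downstream hyper-DMRs, fell by 0.29 ± 0.06 (edgeR adjusted p = 0.0268, lost without formerly obese replicate 2 and when a trend of fold change with GC content was removed).

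**Figure D5:**
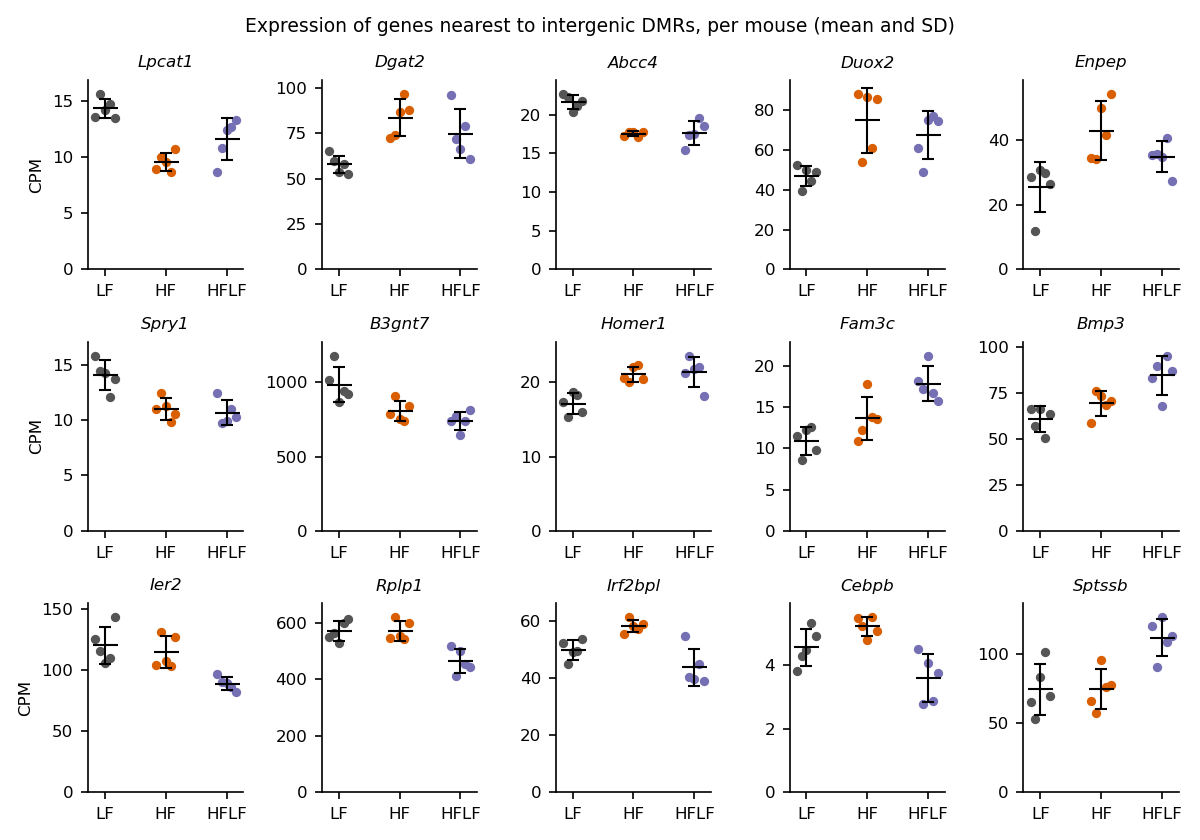
CPM per mouse (y axis, from 0) of 15 genes nearest to intergenic DMRs in control (LF), obese (HF) and formerly obese (HFLF) mice, with points for the 5 mice of each group and bars for the mean and SD. Lpcat1 and Abcc4 separate obese from control mice, Fam3c and Ier2 separate formerly obese from control mice, and Irf2bpl and Cebpb separate formerly obese from obese mice.

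Formerly obese against obese mice gave 25 called genes of 931 (2.69%), 13 higher and 12 lower, beside 2.65% of all tested genes (1.23% higher and 1.42% lower). Near hyper-DMRs 6 were higher and 3 lower, and near hypo-DMRs 7 were higher and 9 lower. Leaving out formerly obese replicate 5 gave 9, and leaving out obese replicates 1 or 2 gave 13 or 15, with a range of 9 to 28 over all libraries. In these fits the share over all tested genes ran from 1.28% to 3.08%. This comparison shares the obese libraries with the first comparison and the formerly obese libraries with the second. A gene called in more than 1 comparison therefore has no independent support. Irf2bpl, a nuclear regulator near a hypo-DMR in the noncoding gene Gm26698, was the single nearest gene with an adjusted p under 0.05, beside 0.193% of all tested genes. Obese mice held 55.4, 61.4, 58.2, 57.1 and 59.1 CPM and formerly obese mice 54.6, 40.5, 39.7, 45.0 and 38.9 CPM, without overlap (log2 fold change -0.41 ± 0.08, edgeR adjusted p = 0.0433), and control mice, at 52.1, 44.9, 49.0, 49.5 and 53.7 CPM, lay below all obese mice and overlapped the formerly obese mice.

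Cebpb, the transcription factor whose hypo-DMR is printed above, stood at 3.80, 4.26, 4.46, 5.29 and 4.89 CPM in control mice, at 5.47, 5.20, 4.78, 5.49 and 5.04 CPM in obese mice and at 4.49, 2.76, 4.05, 2.85 and 3.73 CPM in formerly obese mice. It fell from obese to formerly obese mice without overlap (log2 fold change -0.53 ± 0.14, edgeR adjusted p = 0.0964, lost when the GC trend was removed). GENCODE M21 places this hypo-DMR in an intron of Tmem189, and 4 gene starts lie within 50 kb. Sptssb, a subunit of the enzyme that starts sphingolipid synthesis, held 74.5 ± 14.3 CPM in obese and 112 ± 13.6 CPM in formerly obese mice (SD, n = 5 each). It was higher in formerly obese mice than in obese mice (0.59 ± 0.15, edgeR adjusted p = 0.0886) and than in control mice (0.58 ± 0.15, edgeR adjusted p = 0.0505). Ier2 fell here as well (-0.37 ± 0.08, edgeR adjusted p = 0.0622, lost when the GC trend was removed), as did Jun, a subunit of AP-1 (-0.41 ± 0.11, edgeR adjusted p = 0.0886), while Arhgap20 rose (0.56 ± 0.14, edgeR adjusted p = 0.0812). Edn1 (0.63 ± 0.19), Muc4 (0.40 ± 0.12) and Higd1a (0.45 ± 0.14) were called higher and Comtd1 (-0.30 ± 0.08) and Endog (-0.31 ± 0.09) lower, each call lost without 1 to 6 of the libraries. Removing the GC trend also ended the Endog call (-0.11, edgeR adjusted p = 0.735).

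Genes of known roles were counted by lists. As a base, 7.83% of all gene entries and 7.18% of tested genes were nearest to an intergenic DMR near genes. Of 33 transcription factors of the intestine, 11 (33.3%) were nearest to such a region, with 14 regions, and all 11 were tested. They included Atoh1, Spdef and Creb3l1 of secretory cells, Foxa1, Foxa2, Gata6 and Sox9 of the gut endoderm and crypt, and Ehf, Vdr and Prdm1. Prdm1 was called higher in formerly obese mice than in control mice and than in obese mice, the latter call lost without formerly obese replicates 1, 2 or 4 or obese replicates 1, 2 or 5 (0.51 to 0.61), and in obese against control mice none of the 11 was called. Vdr, the vitamin D receptor, stood at 809, 798, 766, 684 and 726 CPM in control and at 670.5, 725, 668, 694 and 666 CPM in obese mice (log2 fold change -0.14 ± 0.05, edgeR adjusted p = 0.334). Foxa1, with a hyper-DMR 36.7 kb downstream, had a log2 fold change of 0.14 ± 0.05 (edgeR adjusted p = 0.255). Over the whole list of 33, 1 gene was called in obese and 3 in formerly obese mice, both against control mice. The share of this list beside the base is a description and was not tested.

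Of 25 immediate early genes 7 (28.0%) were nearest to a region and 6 of them were tested. None was called in obese mice, while Ier2 and Btg2 were called lower in formerly obese than in control mice and Ier2 and Jun lower than in obese mice. Over the whole list 10 of 23 tested genes were called between formerly obese and control mice and 6 between formerly obese and obese mice. Btg2 fell by 0.34 ± 0.10 on the log2 scale (edgeR adjusted p = 0.0866), a call lost without control replicates 1 or 5 or formerly obese replicate 1 (-0.31 to -0.29).

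Lipid genes near a region were Dgat2, Lpcat1, Scd2, Slc27a4 and Acadm, 5 of 52 (9.62%). In obese mice 1 rose and 1 fell, and in formerly obese mice Slc27a4, a fatty acid transporter, also rose (0.32 ± 0.09, edgeR adjusted p = 0.0707). Over the whole list 8 of 50 tested genes were called in obese and 11 in formerly obese mice, both against control mice. The list includes genes that the study had reported as changed in obese mice, Lpcat1 among them, so calls within it are no independent result. Scd2, a stearoyl-CoA desaturase with 2 upstream hyper-DMRs at 4.95 and 28.7 kb, held 1709, 1862, 1930, 1739 and 1819 CPM in control mice and 1469, 1587, 1271, 1502 and 1413 CPM in obese mice. These groups did not overlap, but the log2 fold change of -0.32 ± 0.12 did not pass (edgeR adjusted p = 0.331). Scd2 was called with DESeq2 (-0.32, adjusted p = 0.221), in an edgeR fit of the compared groups alone (-0.32, adjusted p = 0.0537) and without formerly obese replicate 1 (-0.32, adjusted p = 0.129). In formerly obese mice its level spread from 1035 to 1867 CPM. Of 34 carbohydrate genes Hk2, Ldha, Slc2a1 and Slc2a5 were nearest to a region, and none was called in any comparison. Over that whole list 4 of 31 tested genes were called in obese and 2 in formerly obese mice, both against control mice. The carbohydrate list also includes genes that the study had reported as lower in obese mice (Slc2a4, Pfkm and Pdp1). Calls within it are therefore no independent result. Hk2, a hexokinase, had log2 fold changes of 0.25 ± 0.08 against control mice (edgeR adjusted p = 0.104) and 0.26 ± 0.08 against obese mice (edgeR adjusted p = 0.142) in formerly obese mice, under the fold cutoff, and was called on leaving out any of 3 libraries in the former comparison and any of 5 in the latter. The log2 fold changes of Hk2, Ldha, Slc2a1 and Slc2a5 in obese mice ran from -0.22 for Slc2a5 to 0.03 for Ldha.

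Feedback regulators of kinase signalling gave 4 of 26 genes (15.4%), with 5 regions. Spry1 was called, as given above, and Dusp6, Smad7 and Socs3 were not. Over the whole list 1 of 25 tested genes was called in obese and 5 in formerly obese mice, both against control mice. Socs3, the brake on cytokine signalling, held 28.3 CPM in 1 obese mouse and 4.49 to 14.3 CPM in the other 4. Wnt and stem cell genes gave 5 of 28, of which 3 were tested and 0 called (0 also had an unadjusted p under 0.05 in obese mice). Over that whole list 1 of 20 tested genes was called in obese mice. Hox genes gave 7 of 39 (17.9%), 4 of them in the Hoxc cluster. Of these 7 only 2 were tested, and Hoxb13 was called lower in formerly obese than in control mice, a comparison in which 9 of the 28 tested Hox genes were called. Gene families set by symbol were also counted. Olfactory and vomeronasal receptor genes gave 60 of 1512 (3.97%), none of them tested, and microRNA genes 54 of 1207 (4.47%). Solute carriers gave 35 of 389 (8.997%), zinc finger genes 30 of 395 (7.59%) and histone genes 0 of 77.

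The RNA libraries held 15230391 to 22762095 counts, and 15463 to 16083 genes had a count. Summed markers of epithelium ran from 20110 to 29290 CPM per library, those of stroma and muscle from 5.42 to 29.1, those of immune cells from 56.1 to 85.99 and those of endothelium and fat cells from 2.77 to 8.74, with Lep and Plin1 at 0 in every library. Immune markers were 59.6 to 65.8 CPM in control and 64.2 to 85.99 CPM in obese mice, and no immune marker was called between them. Epithelial markers summed to 20110 to 27150 CPM in control, 21740 to 27030 CPM in obese and 23710 to 29290 CPM in formerly obese mice. Among them Slc26a3, a chloride exchanger of surface cells, ran from 818 to 1311 CPM in control mice, from 854 to 1136 CPM in obese mice and from 1354 to 1764 CPM in formerly obese mice, and was called higher in the last group against both others. Krt20, a keratin of mature surface cells, was called higher in formerly obese (913 to 1368 CPM) than in control mice (652 to 1212 CPM). The part of these marker levels in the differences between groups was not tested. No marker gene was the nearest gene of an intergenic DMR. Targeted methylation amplicons of the series held 233 CpGs, the closest of which was 24337 bases from any of these regions, so they give no second measurement of them.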

How the data were processed

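Gene counts were deposited by the authors as raw counts per gene entry (paired reads, TopHat2 2.0.4 to mm10, HTSeq; annotation release and strand mode not given in the sources used here). The DMR list was deposited with a direction label per region and no level (Bismark to mm10). Amplicon methylation was deposited as a fraction of reads per CpG, without depth, and was used only for its positions. The authors' DESeq2 1.2.10 tables of fold changes and p-values were not used. The low-count filter was filterByExpr and the counts were TMM normalised and fitted with edgeR 4.0.16 (R 4.3.3) over all 15 libraries with group as the only term, after tests on simulated data. CPM used TMM library sizes. P-values were adjusted over all tested genes, and SE is the log2 fold change over the root of the F statistic. Named genes were the called nearest genes with a mean of at least 50 counts (up to 8 higher and 8 lower per comparison by p), the 6 genes with most regions and members of the lists. Positions came from GRCm38 and the gene spans of the counts table. Elements, promoters and further annotation came from RefSeq and GENCODE M21. Members and lists were chosen with earlier results of these data known. Alternatives were DESeq2 1.42.0, other scalings, filters, distances and gene links, a GC correction, a replicate block and leaving out each library. No pairing of mice across diets is stated, and each library is given as a separate mouse.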

Additional observations from a re-analysis of the deposited data

Results flagged for a closer look

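Among 183 groups of 5 mice checked, 13 held 1 mouse far from the other 4, where chance flags about 1 in 20 groups. Each value below is in CPM, beside the nearest other mouse of its group. Control replicate 2 stood apart in B4galnt3 (135.6 against 108), Enpep (11.72 against 26.25) and Ppap2a (17.68 against 22.06). Control replicate 4 stood apart in H1f0 (401.3 against 321.8), Ldha (1160 against 929.2) and Slc27a4 (182.9 against 141.6), and control replicate 1 in Kazald1 (3.114 against 4.986). Obese replicate 2 stood apart in B4galnt3 (107.3 against 94.8) and Endog (17.17 against 15.28), and obese replicate 3 in Ppap2a (28.85 against 24.2). Among formerly obese mice, replicate 2 stood apart in Btg2 (312 against 261.9), replicate 5 in Kazald1 (5.372 against 4.136) and replicate 1 in Smad7 (65.71 against 55.91). These mice were kept in every reported value.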

How the results depend on the processing

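Between obese and control mice 19 nearest genes were called. The count was 1 at an adjusted p under 0.05, and 4 to 32 when single libraries were left out. It was 9 of 551 tested genes (1.63%) with starts within 20 kb and 42 of 1951 (2.15%) with all gene starts within 50 kb. For formerly obese against control mice the 49 became 23, 22 (3.99%) and 91 (4.66%), with 40 to 65 on leaving out libraries. For formerly obese against obese mice the 25 became 1, 14 (2.54%) and 56 (2.87%), with 9 to 28. When libraries were left out, the shares over all tested genes moved as well, as given above. A limit of 20 kb left 1268 regions. DESeq2 gave 25, 57 and 29 calls in the 3 comparisons (1.69%, 3.85% and 1.96%, beside 1.46%, 2.90% and 1.97% of all genes with a count). The GC correction gave 20, 47 and 17 (2.15%, 5.05% and 1.83%, beside 1.58%, 3.55% and 2.16% of all tested genes). A fit with the replicate number as a block gave 25, 52 and 26 (2.69%, 5.59% and 2.79%, beside 1.94%, 4.14% and 2.67%). Correlations of same-numbered deviations between groups ran from -0.23 to 0.33. For replicate 2 its own number gave the highest correlation in all 3 comparisons (0.197, 0.220 and 0.163). For most other replicates it did not. Whether the numbers mark pairs or a shared batch is not settled by this check. The median change near hyper-DMRs in formerly obese against control mice was -0.009374 with all gene starts. On leaving out libraries, the medians between formerly obese and obese mice ran from -0.01153 to 0.00705 near hyper-DMRs and from -0.01009 to 0.004801 near hypo-DMRs. In windows of 200 bases the motif shares were 4.53% for CACGTG, 1.88% for CCGGAAG, 6.496% for TGANTCA, 6.45% for GATAAG, 11.25% for TTTATNG, 13.2% for TGACCT and 5.215% for GGGCGG, since a shorter window holds fewer letters. Of the values of single genes under these alternatives 4152 kept their direction and side of the cutoffs, 196 lost a call, 44 gained one and 0 turned direction while called. Other settings for the amplicons gave no value, because none of their CpGs lay within 1 kb of a region. The 1019 nearest genes under the count filter were not tested.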
